A study of Mus musculus with 4 samples.

Results

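The vessels of the liver were described here through 34 genes listed as endothelial, among 41128 gene rows of a count table of 4 mouse liver libraries. They include genes tied to certain vessel types, such as Oit3 of sinusoidal cells, beside genes shared across endothelium. The members were taken by matching the Ensembl identifier of each table row to a list of 34 gene symbols, and all 34 were found. The symbols, and not their measured levels, defined the list. All 34 had at least 46 counts in every library, passed the filter of 10 counts, and were compared in each of the 5 pairs of libraries examined.

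All cells came from livers of C57BL/6 mice carrying a model of alcoholic hepatitis, in which 40% of calories were eaten freely as a diet rich in cholesterol and fat, 60% were infused into the stomach as a liquid alcohol diet, and a weekly binge was added. Livers were digested with collagenase, hepatocytes were spun out and CD45+ leukocytes were removed on magnetic beads, leaving the presorted CD45- cells. These were sorted on Prom1 (prominin 1, CD133), CD49f (integrin alpha 6) and CD45 into 3 gates, which were Prom1+CD49f+CD45-, then Prom1-CD49f+CD45-, then Prom1+CD49f+CD45+. Each of the 4 populations had 1 library, made from the pooled RNA of 2 mice, and no untreated animals were part of the design, so every difference below is between cell populations of diseased livers.

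Endothelial cells line all blood and lymph vessels and share a core of junction proteins, growth factor receptors and signalling regulators. In the liver most of them are sinusoidal cells, which form a fenestrated lining with little basement membrane, take up waste molecules through scavenger receptors and, in the mature liver, mostly lack diaphragms across their pores. Arteries, portal and central veins, the capillaries around bile ducts and lymphatics have a continuous lining and other sets of surface molecules.

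Levels are TMM-scaled CPM, which are counts relative to the library's size corrected by a trimmed mean of log ratios, and 4 values in a row stand in the order Prom1+CD49f+CD45-, Prom1-CD49f+CD45-, labelled Prom1+CD49f+CD45+, presorted. With 1 library per population no difference has a replicate check and no test was made. Ratios carry an exact 95% interval that covers counting error only, which is too narrow where amplified reads stem from 1 molecule. A gene was called higher or lower where the whole interval lay beyond 2-fold. Summed gene counts ranged from 14670239 to 52293939 per library. Prom1 stood at 355, 31.1, 11.4 and 67.1 CPM. Ptprc, the gene of CD45, stood at 6.33, 3.60, 14.5 and 21.0 CPM, so both genes were below the presorted level in the library labelled positive for both proteins. Itga6, the gene of CD49f, stood at 72.9, 50.5, 127 and 110.4 CPM.

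Promoter windows of RefSeq (build GRCm38.p6, from 250 bases before to 50 bases after the annotated start) were found for 17 of the 34 members. The 4 printed here belong to the members with the 2 lowest and the 2 highest ratios of the Prom1-CD49f+CD45- to the presorted library, relative to Cdh5, among those 17. Capitals mark GGAA, the core of the sites bound by ETS factors, on either strand (TTCC where the site is on the other strand). The windows are chr2:32646345-32646644 (plus strand) for Eng, chr17:73804591-73804890 (plus) for Ehd3, chr3:137340828-137341127 (plus) for Emcn and chr15:75048788-75049087 (minus) for Ly6c1, each written 5′ to 3′ on the strand of its gene.
Eng: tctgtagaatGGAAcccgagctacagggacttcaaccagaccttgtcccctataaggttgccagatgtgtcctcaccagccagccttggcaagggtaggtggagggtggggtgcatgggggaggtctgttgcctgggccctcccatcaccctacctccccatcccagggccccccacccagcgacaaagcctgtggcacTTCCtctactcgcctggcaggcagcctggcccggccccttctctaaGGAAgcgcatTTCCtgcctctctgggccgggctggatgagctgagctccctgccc
Ehd3: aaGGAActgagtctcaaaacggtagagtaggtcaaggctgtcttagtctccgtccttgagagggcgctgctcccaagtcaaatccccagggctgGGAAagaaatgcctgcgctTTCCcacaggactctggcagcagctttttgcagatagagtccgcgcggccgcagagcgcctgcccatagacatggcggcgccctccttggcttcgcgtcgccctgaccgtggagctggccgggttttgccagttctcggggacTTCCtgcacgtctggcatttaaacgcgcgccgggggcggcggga
Emcn: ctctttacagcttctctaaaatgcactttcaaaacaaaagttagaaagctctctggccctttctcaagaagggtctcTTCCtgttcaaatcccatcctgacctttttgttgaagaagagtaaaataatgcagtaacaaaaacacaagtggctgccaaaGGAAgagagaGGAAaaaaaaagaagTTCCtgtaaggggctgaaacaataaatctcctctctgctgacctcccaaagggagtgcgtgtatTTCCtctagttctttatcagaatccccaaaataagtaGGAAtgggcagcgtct
Ly6c1: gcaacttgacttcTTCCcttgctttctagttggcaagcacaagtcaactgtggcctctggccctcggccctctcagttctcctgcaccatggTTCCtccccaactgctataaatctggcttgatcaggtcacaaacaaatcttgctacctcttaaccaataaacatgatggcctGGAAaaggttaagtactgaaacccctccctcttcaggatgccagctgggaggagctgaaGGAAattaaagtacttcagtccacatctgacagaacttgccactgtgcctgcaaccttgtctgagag
The windows of Eng, Ehd3 and Ly6c1 each held 4 matches of GGAA and that of Emcn held 6, so this count did not separate the 2 genes that were low from the 2 that were high. All 17 member windows held GGAA, as did 96.0% of the 32851 windows of the table. The longer AGGAAG, which contains GGAA, was in 12 of 17 (70.6%) against 35.4% of all windows, and CCGGAAGT, which contains it too, was in 0 of 17 against 3.89%. The letters AGATAA, for factors of the Gata family, were in 11.8% of member windows against 11.2%, ACAATG (SOX factors) in 5.88% against 12.6%, and CACACCC (KLF factors) in 11.8% against 7.95%. All 6 motifs were searched on both strands, and a match is a match of letters.

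The members were abundant in 3 of the 4 libraries. They made up 0.0541%, 1.66%, 3.14% and 1.89% of all counts, in the order of libraries given above, so the Prom1+CD49f+CD45- library alone was poor in them. Their summed level was 478, 17171, 29146 and 22189 CPM, and their median level 6.36, 340.3, 662 and 563 CPM. In libraries of mixed cells, fewer endothelial cells and less of these RNAs per cell cannot be told apart.

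**Figure D1:**
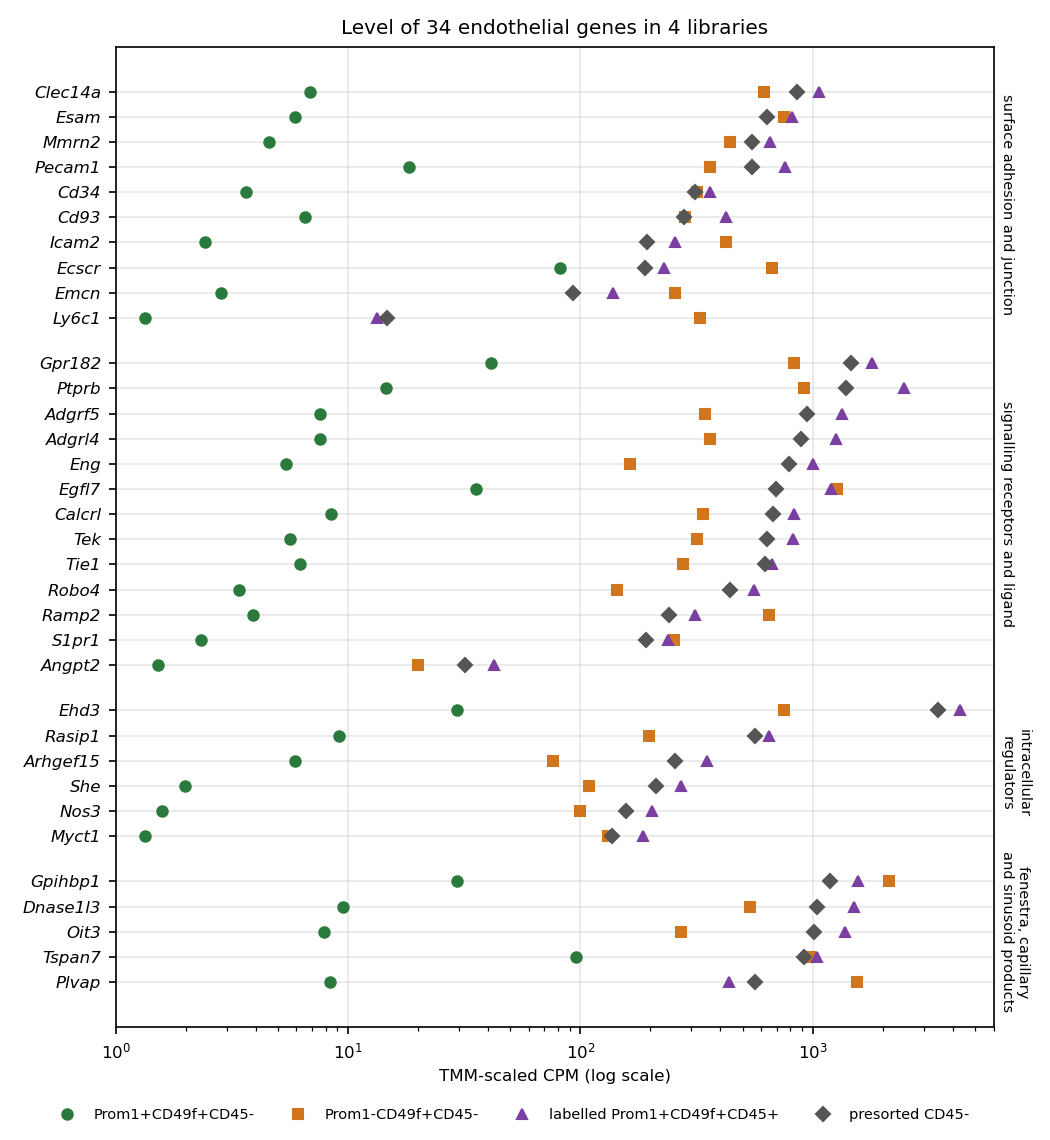
Level of each of the 34 members in the 4 libraries, in TMM-scaled CPM on a logarithmic axis, grouped by role; each symbol is 1 library. The circles of the Prom1+CD49f+CD45- library lie to the left of the other 3 symbols for all 34 genes, while the squares of the Prom1-CD49f+CD45- library lie on either side of the presorted diamonds.

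Compared per length, the order of the members hardly differed between the presorted library and the one labelled Prom1+CD49f+CD45+. Levels between genes were set side by side as TPM, a per-length share of transcripts, computed from the counts and the summed exon length, which assumes reads along the whole transcript. The protocols name a stranded kit for whole messenger RNA, but the series title names Quant-seq, a method that reads 3′ ends, for which this division would not hold. Ehd3 (an ATPase of endocytic recycling) led in both, at 1202 and 2178 TPM, followed by Gpihbp1 (which carries lipoprotein lipase to the vessel lumen) at 1055 and 2032 TPM. Oit3, a secreted protein of sinusoidal cells, and Gpr182, an atypical chemokine receptor, held the next 2 places in both, at 828 and 841 TPM in the presorted cells and 1646 and 1518 TPM in the labelled ones.
In the Prom1-CD49f+CD45- library the order differed. Gpihbp1 led at 1812 TPM, ahead of Plvap, which builds the diaphragms of fenestrae and caveolae, at 1686 TPM, and Ecscr, an endothelial cell surface protein, at 823 TPM. There Ehd3 was in place 12 with 248 TPM, Oit3 in place 15 with 210.3 TPM and Eng in place 28 with 87.8 TPM, whereas Ly6c1 was in place 9 with 422 TPM after place 33 in the presorted library. Over the 34 members, Spearman's rho of TPM was 0.98 between presorted cells and the library labelled Prom1+CD49f+CD45+, 0.60 between Prom1-CD49f+CD45- and presorted, and 0.80 between Prom1+CD49f+CD45- and presorted. These are descriptions across genes, which share their lengths and are not independent.

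The Prom1+CD49f+CD45- cells were low in every member. Against the presorted cells 34 of 34 members were called lower, where 15.6% of the 21640 genes compared were, and against the Prom1-CD49f+CD45- cells 34 of 34 were called lower, where 12.7% of genes were. The members' median log2 ratio was -6.40 against presorted, beside 0.18 over all genes, and -5.68 against Prom1-CD49f+CD45-, beside 0.43. Eng (endoglin, a co-receptor for BMP and TGF-beta ligands) stood at 5.43 (95% Poisson interval 4.68 to 6.27), 164, 1007 and 788 CPM. It was 145-fold lower than in the presorted cells (126 to 169), the lowest of the 34 ratios. Cdh5, which encodes VE-cadherin of endothelial junctions and is no member, stood at 1.78, 175, 231 and 163 CPM.
Ecscr departed most from that depth, at 81.8 CPM in the Prom1+CD49f+CD45- library against 667, 228 and 189.5 CPM in the other 3. It was 2.32-fold lower than in the presorted cells (2.22 to 2.42) and, scaled by library totals, its ratio of 0.575 was no longer beyond 2-fold. Tspan7, a tetraspanin, stood at 95.6, 976, 1048 and 918 CPM, and was 9.60-fold lower than presorted (9.27 to 9.95).
Set against the 61 counts of Cdh5 in the Prom1+CD49f+CD45- library, 6 members stood higher than in the presorted cells, where 94.0% of all genes did, and 28 were not called, 5 of them (Emcn, Gpr182, Gpihbp1, Cd93 and Arhgef15) with ratios of 2.12 to 2.79 whose intervals reached inside 2-fold. The 6 were Ecscr at 39.6-fold, Tspan7 at 9.56-fold, Ly6c1 at 8.37-fold, Egfl7 at 4.74-fold, Angpt2 at 4.36-fold and Pecam1 at 3.06-fold (2.34 to 4.05). None was lower relative to Cdh5, which was called for 0.00462% of genes, but with the sum of the 34 members as the reference 4 were higher and 11 lower. Odorant, trace amine and vomeronasal (pheromone) receptor genes served as a floor, since they are not known to act in liver. Their 95th percentile was 0.817 CPM in this library, against 0.0450 CPM in the presorted one. The lowest members here, Ly6c1 and Myct1 at 1.34 CPM each, stood 1.64-fold above the floor of this library. The part of such low-level signal in the members' values was not tested. The cholangiocyte markers, by contrast, summed to 25812 CPM here and to 4191 CPM in the presorted cells. Of these sums Spp1 alone held 19684 and 3103 CPM. All 13 of 13 were called higher, where 27.6% of all genes were, but the list holds Prom1, on whose protein this gate was sorted.

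The Prom1-CD49f+CD45- cells kept the members at levels near those of their input, but divided them. Against the presorted cells 6 of 34 were called higher, where 9.77% of all genes were, and 9 of 34 lower, where 14.1% were, leaving 19 that were not called. The median log2 ratio was -0.60, beside 0.00 over all genes, and the range ran from -2.26 to 4.47. By role, the surface adhesion and junction molecules had 4 of 10 higher and 0 lower, the signalling receptors and ligand 1 of 13 higher and 5 lower, the intracellular regulators 0 of 6 higher and 3 lower, and the products of fenestrae, capillaries and sinusoids 1 of 5 higher and 1 lower. Cdh5 itself had a ratio of 1.07 (1.02 to 1.12).

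**Figure D2:**
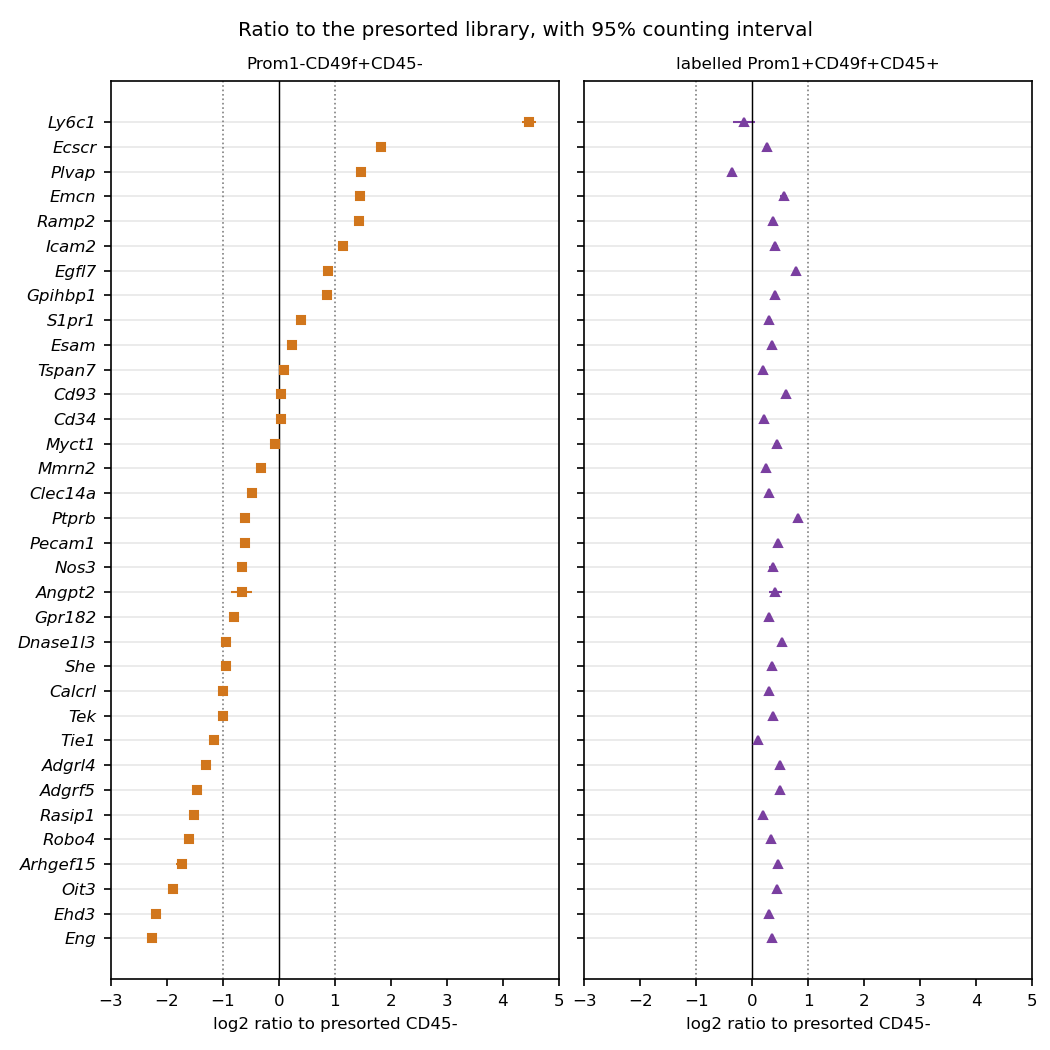
Log2 ratio of each member to the presorted library, for the Prom1-CD49f+CD45- library (left) and the library labelled Prom1+CD49f+CD45+ (right), ordered by the left panel; bars are 95% counting intervals, mostly narrower than the symbol, and dotted lines mark 2-fold. On the left the ratios run from -2.26 for Eng to 4.47 for Ly6c1, and on the right all lie between -0.36 and 0.83.

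Among the adhesion molecules the widest gap was at Ly6c1, which encodes a lipid-anchored surface protein of capillary and other endothelium and of some leukocytes. It stood at 1.34, 327 (317 to 336), 13.3 and 14.7 CPM. The Prom1-CD49f+CD45- library was thus the only high one, 22.2-fold above presorted (20.4 to 24.1). Ly6c2 is a near-identical copy of Ly6c1, so how the counting split reads between them is uncertain. Of genes of this family looked at after the values of Ly6c1 were seen, Ly6c2 stood at 0.817, 6.50, 28.8 and 58.8 CPM, highest in the presorted cells, and Ly6a at 23.0, 3286, 337 and 299.7 CPM and Ly6e at 1680, 2465, 346 and 873 CPM, both highest in the Prom1-CD49f+CD45- cells.
Ecscr was 3.52-fold higher than presorted (3.41 to 3.62), from the values given above. Emcn (endomucin, a sialomucin of capillary and venous endothelium) stood at 2.83, 255, 138 and 93.2 CPM, a ratio of 2.73 (2.61 to 2.86). Icam2, an adhesion ligand for leukocyte integrins, stood at 2.42, 424, 256 and 193 CPM, a ratio of 2.20 (2.13 to 2.27). For these 3 genes the Prom1-CD49f+CD45- library was the highest of the 4.
The other 6 adhesion molecules were not called. Pecam1 (CD31) stood at 18.3, 362, 758 and 550.3 CPM, a ratio of 0.658, and Clec14a, a lectin-like receptor that binds the matrix protein multimerin 2, at 6.86, 618, 1060 and 859 CPM, a ratio of 0.720. Mmrn2, which encodes that matrix protein, had a ratio of 0.799 (439.9 against 550.3 CPM), and its other receptor Cd93 one of 1.02 (283 against 278 CPM). Cd34 had 318 against 312 CPM and Esam, a tight-junction immunoglobulin, 749.8 against 634 CPM, with ratios of 1.02 and 1.18.

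The signalling receptors lay mostly on the lower side. Eng, at 164 CPM against 788 CPM in the presorted cells, was 4.80-fold lower, a ratio of 0.208 (0.20 to 0.217). Robo4, a vessel-stabilising guidance receptor, stood at 3.41, 144, 556 and 442 CPM and was 3.06-fold lower (2.93 to 3.21). The adhesion-type receptors Adgrf5 and Adgrl4 stood at 343 against 948 CPM and at 360 against 890.1 CPM, 2.77-fold and 2.47-fold lower, though the ratio of Adgrl4 was 0.525 in the authors' normalized values and that call was lost.
The angiopoietin genes all had ratios below 1, of which 1 was called. Tie1 stood at 6.19, 277, 668 and 622 CPM and was 2.24-fold lower (2.17 to 2.32), a call lost with the ratio at 0.506 under library totals, 0.501 under DESeq2 size factors and 0.579 in the authors' normalized values. Tek (TIE2), the receptor of angiopoietins, stood at 5.63, 318, 825 and 638 CPM, 2.01-fold lower with an interval of 1.94 to 2.07 that reached inside 2-fold. Its phosphatase Ptprb stood at 14.6, 920.4, 2478 and 1397 CPM, a ratio of 0.659. The ligand Angpt2 was the scarcest of the group, at 1.52, 20.1, 42.4 and 31.9 CPM, a ratio of 0.631 (0.554 to 0.717).
The 2 chains of the adrenomedullin receptor went apart in direction. Calcrl, the receptor chain, stood at 8.46, 338, 829.6 and 675 CPM, with a ratio of 0.501 (0.486 to 0.517), within the 2-fold limit. Ramp2, the accessory chain that gives it affinity for adrenomedullin, stood at 3.91, 648, 311 and 241 CPM and was 2.69-fold higher (2.61 to 2.76). Ramp2 overlaps Vps25 on the same strand, which had 1911 counts in the Prom1-CD49f+CD45- library beside 9174 of Ramp2.
S1pr1, the receptor for sphingosine 1-phosphate, had a ratio of 1.31 (252 against 192 CPM), and the secreted factor Egfl7 one of 1.84 (1273 against 693 CPM). Gpr182 had a ratio of 0.570 (831 against 1459 CPM). Egfl7 passed 2-fold at 2.09 under library totals, 2.07 under DESeq2 size factors and 2.39 in the authors' normalized values.

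Among the intracellular regulators none was called higher. Ehd3 stood at 29.3, 752, 4291 and 3457 CPM and was 4.59-fold lower in the Prom1-CD49f+CD45- cells than in their input (4.51 to 4.69). Arhgef15 stood at 5.89, 76.5, 351 and 255 CPM and was 3.34-fold lower (3.14 to 3.56). Rasip1, a Ras-interacting protein needed for vessel lumens, stood at 9.16, 198, 649 and 565 CPM and was 2.86-fold lower (2.75 to 2.97).
For all 3 the high values were those of the presorted library and of the one labelled Prom1+CD49f+CD45+. Nos3, the endothelial nitric oxide synthase, had 99.8 against 157 CPM, a ratio of 0.635, the adaptor She had 109 against 211 CPM, a ratio of 0.517, and Myct1 had 131 against 137 CPM, a ratio of 0.953 with an interval that reached 1.00.

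The products tied to fenestrae, capillaries and sinusoids split in both directions. Plvap (mm10 chr8:71497765-71511752, minus strand) stood at 8.34, 1548 (1528 to 1569), 438 and 562 CPM, 2.76-fold above presorted (2.71 to 2.81). Oit3 (mm10 chr10:59422958-59441778, minus strand) stood at 7.88, 271, 1378 and 1012 CPM, 3.74-fold lower (3.62 to 3.86). The Prom1-CD49f+CD45- library was therefore the highest of the 4 for Plvap, and below the presorted and labelled Prom1+CD49f+CD45+ libraries for Oit3.
Gpihbp1 stood at 29.5, 2139, 1559 and 1183 CPM, a ratio of 1.81 that passed 2-fold at 2.05 under library totals, 2.03 under DESeq2 size factors and 2.35 in the authors' normalized values. Dnase1l3, a secreted nuclease, stood at 9.48, 539, 1507 and 1041 CPM, a ratio of 0.518 (0.505 to 0.530). Tspan7 had a ratio of 1.06.

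Relative to Cdh5, which needs no library scaling, 5 members were higher in the Prom1-CD49f+CD45- than in the presorted cells, where 8.36% of genes were, and 11 were lower, where 15.6% were. Ly6c1 was 20.7-fold higher (18.9 to 22.8), Ecscr 3.29-fold, Plvap 2.58-fold, Emcn 2.56-fold and Ramp2 2.51-fold. The 9 members called lower above were lower here too, led by Eng at 5.13-fold (4.82 to 5.46) and Ehd3 at 4.92-fold (4.68 to 5.17), joined by Tek at 2.15-fold and Calcrl at 2.14-fold. In each comparison, setting members against Cdh5 divides all their ratios by the same number, the ratio of Cdh5 itself. Their order therefore cannot change, and agreement with the scaled calls is no separate support for them.

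Lists of genes typical of single vessel types, which hold no member, were read in the same comparison. Of 15 sinusoidal genes, 1 was called higher (Wnt2, at a ratio of 2.15) and 9 lower, with a median log2 ratio of -1.46. Stab2, a scavenger receptor of sinusoidal cells, stood at 358 against 2812 CPM, a ratio of 0.127, and Kdr, the main VEGF receptor, at 315 against 2230 CPM, a ratio of 0.141, whereas Clec4g, a sinusoidal lectin, had 1932 against 2464 CPM, a ratio of 0.784, and the fatty acid receptor Cd36 had one of 0.513.
The arterial and large vessel list had 8 of 14 higher and 0 lower, with a median log2 ratio of 1.59. Gja4 (connexin 37) stood at 1685 against 686 CPM, a ratio of 2.45, and Sox17, an arterial transcription factor, at 378 against 103 CPM, a ratio of 3.67, while Cldn5 had a ratio of 1.29 and Jag1, also made by bile ducts, one of 0.866. Dll4 at 123 against 211 CPM, Efnb2 at 76.0 against 139.9 CPM and Jag2 at 5.09 against 5.65 CPM also stood below presorted, without being called. The venous and activated vein list had 6 of 12 higher and 1 lower, with a median of 1.08. In it Vwf (von Willebrand factor) had 618 against 90.3 CPM, a ratio of 6.84, and Ephb4 had 232 against 564 CPM, a ratio of 0.411.
Of 9 continuous capillary genes 2 were higher and 1 lower, with a median of 1.07, the higher ones being the fatty acid binding protein Fabp4 at 949 against 192 CPM, a ratio of 4.94, and Cav1 (caveolin) at 211 against 48.8 CPM, a ratio of 4.32. Cav1 also stood at 139 CPM in the Prom1+CD49f+CD45- library, which was poor in the members, so its level need not stem from endothelium. The kinase gene Sgk1, the most abundant of that list, had a ratio of 0.906 (689 against 761 CPM), Cd300lg one of 0.630, and the chemokine Cxcl12, which was the gene called lower, one of 0.239. Of 9 lymphatic genes 6 were higher and 0 lower, with a median of 1.79, and the multimerin Mmrn1 of lymphatic vessels stood at 139 against 12.2 CPM, a ratio of 11.4. Prox1, the transcription factor of lymphatic identity that hepatocytes and bile ducts also make, went the other way at 35.7 against 62.0 CPM, a ratio of 0.576, not called. Of the 6 higher ones, Tbx1 and Pdpn were not confined to this gate. They stood at 47.0 and 6.42 CPM in the Prom1+CD49f+CD45- library, beside 19.8 and 6.92 CPM in the Prom1-CD49f+CD45- one. The 10 genes of endothelial transcription and core identity had 0 higher and 1 lower, Ets1 at a ratio of 0.341, with a median of -0.03, beside 0.00 over all genes. The members' median of -0.60 thus lay between the sinusoidal median and those of the other vessel lists.

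**Figure D3:**
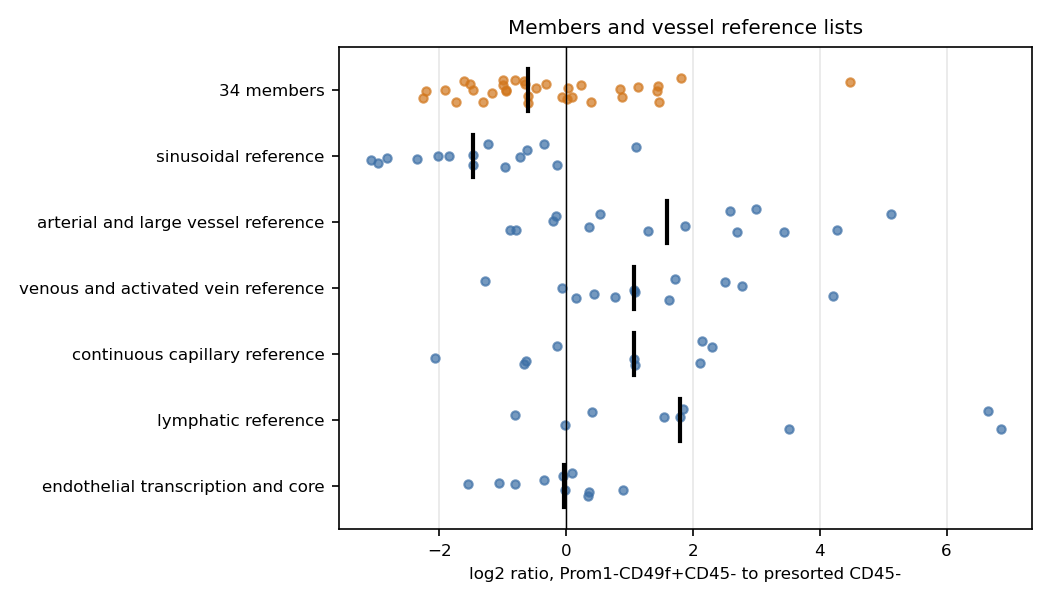
Log2 ratio of the Prom1-CD49f+CD45- to the presorted library for the 34 members and 6 lists of vessel genes; each point is 1 gene, vertical jitter has no meaning and the thick bar is the list's median. The sinusoidal median is -1.46, the arterial 1.59, the venous 1.08, the capillary 1.07, the lymphatic 1.79 and the members' -0.60.

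Gene length moved with the same ratio. Over 14579 genes with at least 10 counts in both libraries, Spearman's rho between length and log2 ratio was -0.31, with a median log2 ratio of 0.69 in the shortest eighth and -0.51 in the longest. Over the 34 members it was -0.44, and still -0.32 once the trend of all genes had been removed. With that trend removed, 4 members stayed higher and 7 lower: Icam2 (ratio 1.49), Plvap (1.90), Tie1 (0.540) and Adgrf5 (0.493) were no longer called. The sinusoidal median became -1.03, the arterial 1.57, the venous 1.37, the capillary 0.54, the lymphatic 1.61 and the members' -0.28.
Other cell types changed between these libraries as well. The hepatocyte markers summed to 3100 CPM in the Prom1-CD49f+CD45- library against 14078 CPM in the presorted one, with 12 of 12 lower, and the Kupffer and macrophage markers to 158 against 1117 CPM, with 12 of 12 lower. The cholangiocyte markers summed to 9671 against 4191 CPM, with 7 of 13 higher, and the mesothelial markers to 1333 against 612 CPM, with 5 of 7 higher. Of the cholangiocyte sums Spp1 held 8188 and 3103 CPM. Of the mesothelial sums Krt8 held 821 and 466 CPM, a keratin gene that stood at 2433 CPM in the Prom1+CD49f+CD45- library. Stellate and fibroblast markers summed to 698 against 773 CPM, with 1 of 12 higher and 7 lower. Platelet and megakaryocyte markers summed to 66.7 against 96.0 CPM, with 4 of the 8 compared higher and 1 lower. None of these lists had a gene at 0 counts in either library. Their part in the members' ratios was not tested.

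**Figure D4:**
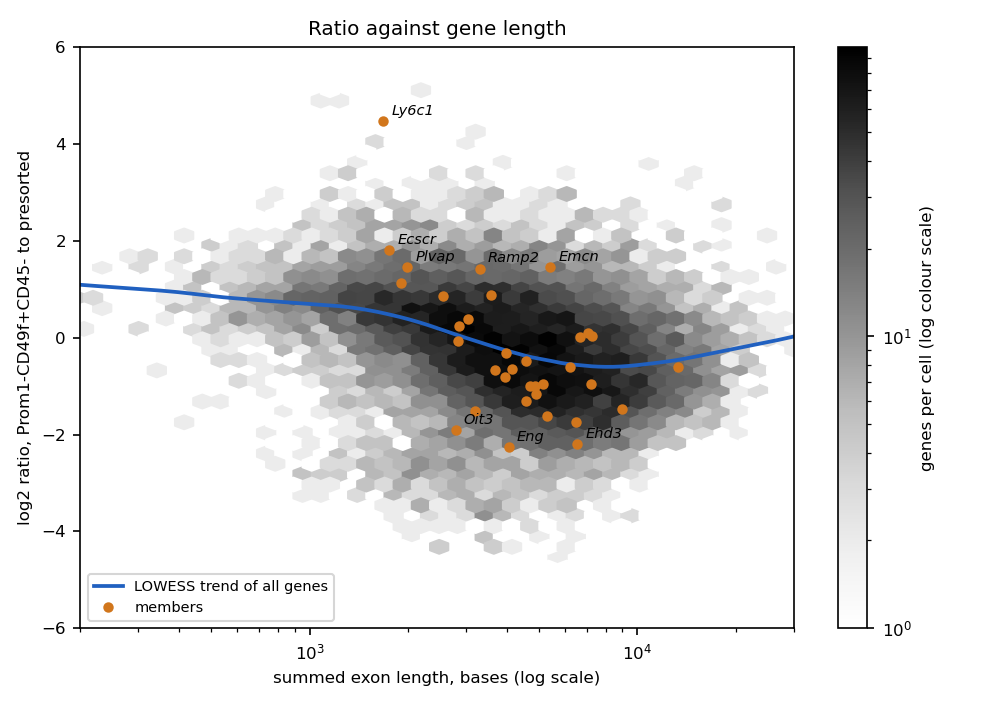
Log2 ratio of the Prom1-CD49f+CD45- to the presorted library against summed exon length in bases (logarithmic axis); grey cells hold the 14579 genes, orange points the members and the line the LOWESS trend. The line falls over most of the range, and Ly6c1, Ecscr and Plvap lie among the shorter members while Ehd3 and Eng lie below the line.

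The library labelled Prom1+CD49f+CD45+ carried the members in nearly the proportions of the presorted cells. Of 34 members 0 were called higher, where 23.8% of all genes were, and 0 lower, where 12.1% were. The median log2 ratio was 0.36, beside 0.09 over all genes, with a range from -0.36 to 0.83. The interval lay above 1 for 32 members and below 1 for Plvap at 0.779 (0.762 to 0.797), while that of Ly6c1 at 0.906 (0.791 to 1.04) spanned 1. Both directions depended on the scaling: in the authors' normalized values Plvap had a ratio of 1.05 and Ly6c1 one of 1.22, and library totals put Ly6c1 at 1.15. The upper end was held by Ptprb at 1.77 (1.75 to 1.79), Egfl7 at 1.73 and Cd93 at 1.52.
Relative to Cdh5, again 0 of 34 were higher and 0 lower, where 20.0% and 18.7% of genes were, and the ratios ran from 0.551 for Plvap (0.529 to 0.574) to 1.25 for Ptprb (1.21 to 1.30) with a median of 0.910. The sinusoidal list had 0 of 15 called in either direction and a median log2 ratio of 0.46, the arterial list 0 higher and 3 of 14 lower (Gja5, Fbln5 and Eln) with -0.47, and the lymphatic list 0 higher and 5 of 9 lower (Ccl21a, Prox1, Mmrn1, Reln and Tbx1) with -1.64. The hepatocyte, cholangiocyte and stellate marker sums were 372, 455 and 67.6 CPM, against 14078, 4191 and 773 CPM in the presorted cells. The list of blood stem cell and leukocyte markers summed to 1247 against 1560 CPM, with 1 of 10 higher and 2 lower. Kit at 622 against 431 CPM and Mpo at 552 against 980.3 CPM held most of these 2 sums, while Ptprc had 14.5 against 21.0 CPM. The part of these cell types in the members' ratios was not tested.

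Set directly against the library labelled Prom1+CD49f+CD45+, the Prom1-CD49f+CD45- cells had 4 of 34 members higher, where 13.0% of genes were, and 16 of 34 lower, where 17.7% were. This comparison shares a library with each of those above. The 4 were Ly6c1 at 24.5-fold (21.9 to 27.5), Plvap at 3.54-fold (3.46 to 3.62), Ecscr at 2.93-fold and Ramp2 at 2.08-fold (2.02 to 2.15). The lowest were Eng at 6.13-fold lower (5.88 to 6.40), Ehd3 at 5.70-fold and Oit3 at 5.09-fold. With the length trend removed, Ecscr (ratio 1.61) and Ramp2 (1.84) were no longer called higher, while Emcn was, at 2.27. Ptprb (0.606), Pecam1 (0.637), She (0.577) and Tie1 (0.490) were then no longer called lower.
Relative to Cdh5, 6 members were higher, where 19.3% of genes were, and 9 lower, where 10.1% were. Icam2 at 2.19-fold and Emcn at 2.43-fold joined the higher ones. By role, 9 of 13 signalling members and 4 of 6 intracellular regulators were lower against the library labelled Prom1+CD49f+CD45+ on the TMM scale, but 1 of 10 adhesion molecules, which was Pecam1 at 2.09-fold lower (2.03 to 2.16).

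The pathways around the members were read in Prom1-CD49f+CD45- against presorted cells from lists that hold no member. Of 13 compared genes of the angiopoietin and VEGF pathway 1 was called higher and 4 lower, leaving aside Pgf. It had 51 counts in the Prom1-CD49f+CD45- library and 0 in the presorted one, so its ratio was not finite and it was not counted as called. Kdr is given above. Nrp1, a VEGF co-receptor, stood at 508 against 1278 CPM, a ratio of 0.397. Flt4, the VEGF-C receptor, stood at 138 against 1167 CPM, a ratio of 0.119, and Nrp2 at 74.0 against 272 CPM, a ratio of 0.272. Pgf aside, the gene called higher was Vegfc, a ligand of Flt4, at 167 against 15.9 CPM, a ratio of 10.5, named after its value was seen.
Of 7 compared genes of the adrenomedullin and CGRP pathway 4 were higher (Ackr3, Cpe, Ramp3 and Calca) and 0 lower. Ackr3, a scavenging receptor for adrenomedullin and CXCL12, stood at 81.6 against 23.9 CPM, a ratio of 3.42, Ramp1 at 23.7 against 25.1 CPM, a ratio of 0.942, and the ligand Adm at 19.8 against 35.4 CPM, a ratio of 0.558. Of 12 genes of the nitric oxide and S1P pathway 1 was higher, Cav1, and 4 were lower, Sphk2, Nos2, S1pr3 and Nos1, the last with 1 count in the Prom1-CD49f+CD45- library. Spns2, which exports sphingosine 1-phosphate, had 68.4 against 75.0 CPM, a ratio of 0.912, and Cavin1 had 152 against 108 CPM, a ratio of 1.41.
Counting without a stated strand rule left overlapping genes uncertain. Of the 34 members 9 overlap another protein-coding gene. Beside Ramp2, the fullest such neighbours were those of Eng and Egfl7 on the opposite strand: Fpgs had 250 counts in the Prom1-CD49f+CD45- library beside 2326 of Eng, and in the Prom1+CD49f+CD45- library 777 beside 186. There Agpat2 had 3621 counts beside 1225 of Egfl7, and Vps25 had 2412 beside 134 of Ramp2. In that library Mcph1, opposite Angpt2, had 324 counts beside 52 of Angpt2, which bears on the ratio of Angpt2 to Cdh5 there.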

How the data were processed

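Per the labels' protocols, polyA-selected RNA went into a stranded kit with amplification cycles set by input. TopHat2, Partek and the mm10 build appear, without roles, among the submitters' processing notes. Program settings and the strand rule were not given in the sources used here. Deposited by the authors were estimated counts per gene (50.5% to 60.5% whole numbers per library) and normalized values, which were CPM with 1 added. The column named only CD45 was taken as the presorted cells, the 1 population with no other column.

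Estimated counts were rounded, matched to GENCODE vM21 symbols (40254 of 41128) and scaled by TMM (edgeR 4.0.16, R 4.3.3). Comparisons took the 21640 genes reaching 10 counts somewhere among the libraries. Intervals are exact (Clopper-Pearson on conditional binomial counts; Poisson for levels, SciPy 1.17.1). The length trend is a LOWESS fit with a fraction of 0.3 (statsmodels 0.14.6). The procedure was tested on simulated data. Alternatives were DESeq2 1.42.0 size factors, library totals, the authors' values, filters of 0 and 50 counts, a 1.5-fold limit, no interval, length removal and other references than Cdh5. Members and lists were chosen with earlier results of these data known. Named were all members and up to 4 genes of highest mean level per other list, Cdh5 and the genes of the sorted proteins. Other genes that make up a small count were named after their values were seen.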

Additional observations from a re-analysis of the deposited data

How the results depend on the processing

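No paired analysis was possible because each population had 1 library, and for the same reason no library could be left out in turn. Of 103 higher or lower calls of members over 5 comparisons, DESeq2 size factors kept 100, library totals 100, the authors' normalized values 101 and removal of the length trend 93, and no called ratio crossed 1. A 1.5-fold limit, dropping the interval and both other count filters kept 103, but these could not lose a call. The lower limit and the dropped interval only loosen the rule, and every member passes both filters. Among the 67 results not called, these settings made up to 14 new calls (1.5-fold limit), and ratios crossed 1 for 6 with the length trend removed and for 4 each with DESeq2 size factors, library totals and the authors' values. With the 1.5-fold limit, 14 members were lower in Prom1-CD49f+CD45- cells than in their input, and 2 (Ptprb and Egfl7) were higher in the library labelled Prom1+CD49f+CD45+ than in presorted cells. That last count was also 2 with library totals and 4 with the authors' values, which added Cd93 and Emcn. With the sum of the members in place of Cdh5, 11 were lower in Prom1+CD49f+CD45- cells than in that input, and in Prom1-CD49f+CD45- against presorted cells 8 were higher and 7 lower. Library totals shifted all log2 ratios by 0.16 to 0.42 in size and DESeq2 size factors by up to 0.21. The cause of these differences was not tested. In the Prom1+CD49f+CD45- library, 46 counts for Ly6c1 and 61 for Cdh5 limit the ratios that rest on them.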
